A study of Mus musculus with 12 samples.

Results

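The gene difference shared by the GFP+ fibroblasts of both fat depots was measured on 12 arrays, which are all 12 arrays of the study, 6 of GFP+ and 6 of GFP- cells. Each fraction was represented by 3 arrays from inguinal fat, the depot under the skin of the groin, and 3 from epididymal fat, the depot around the testis inside the abdomen. All cells were fibroblasts grown from the stromal vascular fraction, the part of fat that remains once the fat cells are removed, of male mice aged 6 to 8 weeks. The mice were Zfp423-GFP transgenic on an FVB and C57BL/6 background, the GFP- cells included, and the labels do not say which Zfp423 sequences drive the green fluorescent protein (GFP). Cells were sorted by GFP, put back in culture in DMEM/F12 medium with fetal bovine serum and collected before they stopped dividing. No label ties replicates to separate animals or cultures, so the spread behind every p-value may be purely technical. For each of 12393 genes, the GFP+ mean minus the GFP- mean was taken on the log2(intensity + 16) scale, in each depot and averaged over both with depot as a blocking factor. A gene was counted as shared when the difference had one sign and a size of at least 0.5 in each depot. This held for 212 genes, 99 higher and 113 lower in GFP+ cells. The same values chose these genes, so their differences describe the choice and are no test of it.

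Preadipocytes are fibroblast-like cells committed to become fat cells. The zinc-finger protein Zfp423 brings fibroblasts into this lineage and acts upstream of Pparg, the nuclear receptor that switches on the genes of fat cells. Early B-cell factors (EBF proteins) are binding partners of Zfp423 in other settings and are themselves regulators of fat cell formation. Fatty acid binding proteins such as Fabp4 are classical targets of Pparg.

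The following 300 base windows, 250 bases before and 50 after an annotated transcription start, are shown because they belong to genes that were higher in the GFP+ cells of both depots and hold the palindromic core of an EBF site, CCCNNGGG, printed in capitals. They come from RefSeq on build GRCm38.p6 and run 5′ to 3′ on the strand of the gene. Zfp423 and Greb1 each have another annotated start whose window does not hold this core.
Zfp423, chr8:87804390-87804689, minus strand: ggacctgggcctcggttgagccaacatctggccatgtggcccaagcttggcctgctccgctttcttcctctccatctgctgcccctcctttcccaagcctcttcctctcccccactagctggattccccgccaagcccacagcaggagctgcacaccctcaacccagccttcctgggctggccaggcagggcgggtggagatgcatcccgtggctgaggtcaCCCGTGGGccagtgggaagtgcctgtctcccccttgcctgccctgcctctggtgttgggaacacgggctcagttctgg
Ebf3, chr7:137314396-137314695, minus strand: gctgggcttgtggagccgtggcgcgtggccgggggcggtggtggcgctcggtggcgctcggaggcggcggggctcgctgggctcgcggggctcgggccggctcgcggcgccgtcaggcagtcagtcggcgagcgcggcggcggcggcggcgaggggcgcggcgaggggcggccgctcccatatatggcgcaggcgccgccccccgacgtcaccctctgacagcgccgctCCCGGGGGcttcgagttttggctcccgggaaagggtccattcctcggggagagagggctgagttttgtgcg
Lgr6, chr1:135105227-135105526, minus strand: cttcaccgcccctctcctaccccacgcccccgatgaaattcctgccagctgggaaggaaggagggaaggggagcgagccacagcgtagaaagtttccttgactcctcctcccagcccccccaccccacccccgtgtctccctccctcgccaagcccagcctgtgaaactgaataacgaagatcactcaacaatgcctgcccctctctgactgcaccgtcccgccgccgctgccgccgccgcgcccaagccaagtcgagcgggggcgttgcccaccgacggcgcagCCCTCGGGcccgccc
Greb1, chr12:16757190-16757489, minus strand: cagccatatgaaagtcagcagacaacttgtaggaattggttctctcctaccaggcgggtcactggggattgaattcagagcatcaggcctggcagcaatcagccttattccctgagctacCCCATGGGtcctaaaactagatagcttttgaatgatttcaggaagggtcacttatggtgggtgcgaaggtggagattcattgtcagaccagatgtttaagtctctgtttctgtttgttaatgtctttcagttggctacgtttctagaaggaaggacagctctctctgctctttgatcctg
Zfp423 is the gene of the reporter, Ebf3 encodes an EBF protein, Lgr6 a receptor for R-spondins, and Greb1 a protein known for its induction by oestrogen. Promoter windows were found for 72 of the 99 higher and 85 of the 113 lower genes. The core, the same on both strands, was present for 19 of the 72 higher genes (26.4%) and 15 of the 85 lower genes (17.6%), against 2007 of 9887 genes of the array with a window (20.3%). The higher genes with it were Acer2, C1galt1, Cck, Cd53, Cpxm1, Ebf3, Fbln1, Fxyd5, Greb1, Inhbb, Larp6, Lgr6, Lpar1, Pde1b, Rgs16, Slc24a3, Uroc1, Wnk4 and Zfp423. The median GC content of the windows was 53.0% in the higher, 56.8% in the lower and 59.0% in all genes of the array, and its part in these shares was not tested. A direct repeat of 2 AGGTCA half-sites with 1 base between them, the form bound by PPARG with its partner RXR, was searched on both strands and was found in none of the windows of either set and in 4 of the 9887 genes, so no match overlapped an EBF core. These are matches of letters and not binding sites.

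Within groups, Pearson's r between arrays over all genes was 0.993 to 0.995, and array medians differed by at most 0.09 on the log2 scale. Genes were called weakly detected when their mean lay in the lowest 30% (an intensity under 77.7), and 31 olfactory receptor genes, which fibroblasts do not use and which mark the floor of detection, had group medians between 19.9 and 22.3. Because 16 was added to each intensity, log2 differences of such weak genes are understated. The fibroblast receptor genes Pdgfra and Pdgfrb had group means of at least 4627 and 4042 in all 4 groups. The epithelial marker Epcam had group means between 21.2 and 34.5, and the endothelial marker Pecam1 between 11.5 and 22.5.

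Averaged over both depots, 998 genes were higher (8.05% of genes) and 1100 lower (8.88%) in GFP+ cells at a Benjamini-Hochberg adjusted p of 0.05 in limma, 16.9% of genes in either direction. The smallest adjusted p-values belonged to Nfib, Igfbp2 and Mrap. This fit treats a difference between depots as residual error. A fit with a mean for each of the 4 groups, in which such a difference is not error, called 35.3% of genes for the same average. That fit called 12.6% of genes in inguinal cells and 41.9% in epididymal cells. It called the depot difference of the GFP effect, which is the inguinal minus the epididymal difference, for 34.8% of genes. Most called genes were small in one of the depots: of the 2098 genes called, 2058 had one sign in both depots, and 1861 of these were under 0.5 in at least 1 of them. The median difference over all genes was -0.0019 for the average, -0.011 in inguinal and 0.011 in epididymal cells. Leaving out any 1 of the 6 epididymal arrays brought the count to between 536 and 588 higher and between 622 and 668 lower genes (each a change of over 1.5 times), while leaving out any 1 inguinal array did not move either count by that much. The fit then gives less weight to the depot that lost an array, so the average no longer weighs both depots equally. The part of this shift in the counts was not tested.

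Few of the genes that differed in one depot did so in the other with the same sign. A difference of at least 0.5 in either direction was seen for 873 genes in inguinal and 2337 in epididymal cells, and the 212 shared genes were 24.3% and 9.07% of these. Across all 12393 genes the differences of the depots correlated at r = 0.083, and at 0.11 over the 8675 genes that were not weakly detected, as a description, since genes share arrays. The 99 higher genes were 0.799% of all genes and the 113 lower genes 0.912%. Of the shared genes, 197 were also called in the averaged fit, which used the same values, and 14 of the 15 others were weakly detected. The exception was Foxb1, a forkhead factor gene singled out here after its values were seen, with a difference of 0.70 ± 0.32 (SE; adjusted p = 0.159 in limma). In 169 of the 212 genes the 3 GFP+ and 3 GFP- arrays did not overlap in either depot, a pattern seen in 9.81% of all genes. In 46 of the higher genes all 6 GFP+ arrays lay above all 6 GFP- arrays, against 1.44% of all genes, and in 39 of the lower genes all 6 lay below, against 1.46%. The rule used these values, so nothing is read from the shares.

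**Figure D1:**
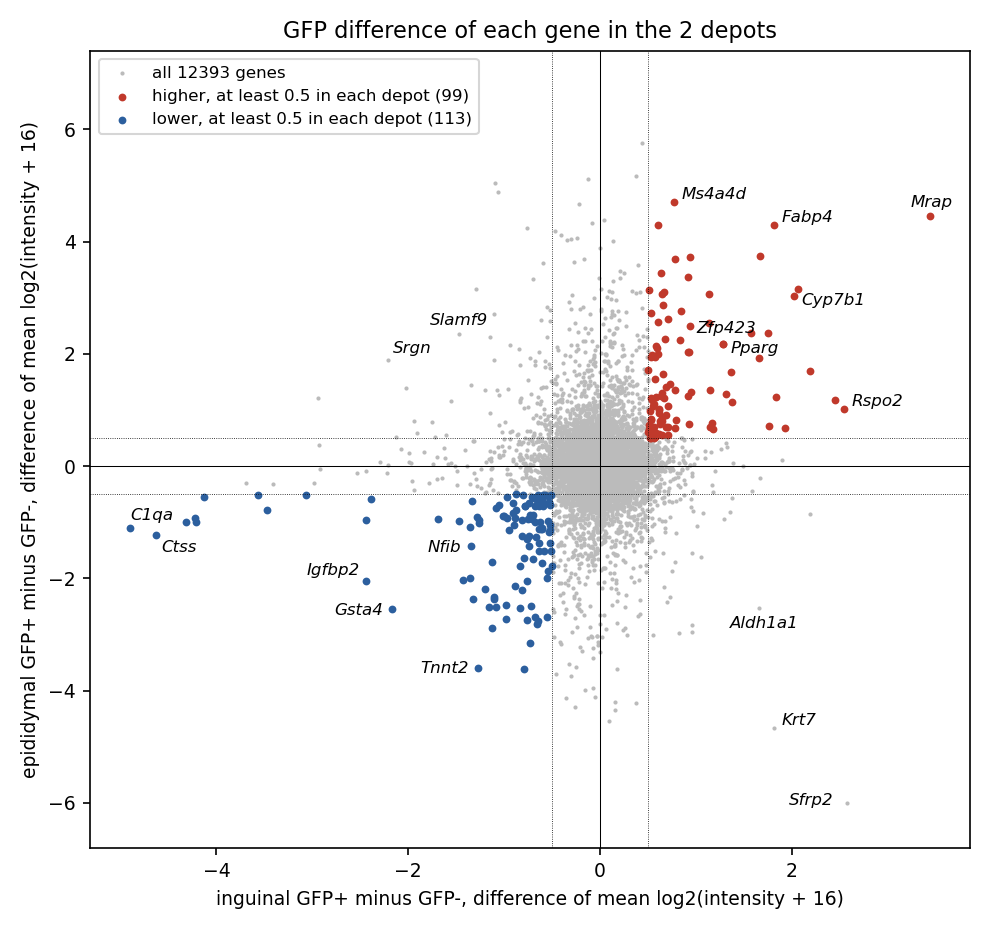
Difference between GFP+ and GFP- means on the log2(intensity + 16) scale for each of 12393 genes, in inguinal cells on the horizontal and in epididymal cells on the vertical axis. Red points are the 99 genes higher and blue points the 113 genes lower by at least 0.5 in each depot, dotted lines mark 0.5, and Mrap lies farthest to the upper right at 3.44 and 4.46.

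The shared genes were not of equal size in the depots. The median higher gene differed by 0.67 in inguinal and by 1.25 in epididymal cells, and the median lower gene by -0.79 and -1.04. In 146 of the 212 the difference was larger in epididymal and in 66 larger in inguinal cells. The depot difference itself was called for 112 of the 212 (52.8%), 90 larger in epididymal and 22 larger in inguinal cells, at an adjusted p of 0.05 in limma. A size of at least 1 in both depots was reached by 20 higher and 19 lower genes. The median expression of the shared genes was low, with a mean log2 value of 7.80 against 9.11 over all genes. Weakly detected genes were 51 of the 212, a smaller share than the 30% of all genes.

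Zfp423 itself followed the sort. It read 151, 112 and 110 in inguinal GFP+ against 47.4, 73.2 and 51.7 in inguinal GFP- arrays, and 239, 278 and 208 in epididymal GFP+ against 29.1, 25.8 and 33.4 in epididymal GFP- arrays. The fractions did not overlap in either depot, and the GFP- arrays of epididymal cells were the lowest of all. The difference was 0.94 in inguinal and 2.50 in epididymal cells, and averaged 1.72 ± 0.26 (SE, 6 against 6 arrays; adjusted p = 0.00145 in limma). Its depot difference was called. Ebf3, which encodes an EBF protein, read 673, 538 and 548 in inguinal GFP+ against 313, 357 and 329 in inguinal GFP- arrays, and 31.7, 49.5 and 47.7 in epididymal GFP+ against 19.5, 18.1 and 24.3 in epididymal GFP- arrays. The sort differences of Ebf3 were 0.78 in inguinal and 0.67 in epididymal cells, and its inguinal intensities were far above the epididymal ones. The epididymal GFP- arrays lay near the level of the olfactory receptor genes, so the sizes in the depots are not comparable. The other probe sets of Ebf3, weakly detected, differed by 0.57 and 0.71 in inguinal and by 0.43 and 0.39 in epididymal cells. Neither met the rule. The averaged difference of Ebf3 in the probe set used was 0.73 ± 0.10 (adjusted p = 0.00112, limma).

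Ranked by the smaller of its differences in the depots, the first of the 212 genes was Mrap, whose product carries the receptor for adrenocorticotropic hormone to the cell surface. Mrap read 518, 417 and 475 in inguinal GFP+ against 31.2, 19.1 and 37.8 in inguinal GFP- arrays, and 712, 694 and 686 in epididymal GFP+ against 16.9, 13.2 and 19.4 in epididymal GFP- arrays. Every GFP+ array was above every GFP- array, and the GFP- arrays lay close to the level of the olfactory receptor genes. Within a single depot others were larger in size, among them C1qa at -4.90 in inguinal and Ms4a4d at 4.71 in epididymal cells. The Mrap difference was 3.44 in inguinal and 4.46 in epididymal cells and averaged 3.95 ± 0.19 (adjusted p = 3.73e-07, limma). Fabp4, the fatty acid binding protein of fat cells, read 5013, 5703 and 4022 in inguinal GFP+ against 1399, 1417 and 1301 in inguinal GFP- arrays, and 6169, 6471 and 6031 in epididymal GFP+ against 295, 318 and 288 in epididymal GFP- arrays. The depots lay closer together in GFP+ than in GFP- cells, where the epididymal arrays were low. The difference was 1.81 in inguinal and 4.30 in epididymal cells, with an average of 3.06 ± 0.37 (adjusted p = 0.0004, limma). Pparg read 796, 912 and 805 in inguinal GFP+ against 355, 343 and 305 in inguinal GFP- arrays, and 238, 222 and 183 in epididymal GFP+ against 29.7, 28.2 and 48.8 in epididymal GFP- arrays. Inguinal GFP- arrays were above the epididymal GFP+ arrays, so the fractions were apart within each depot but not across them. The Pparg difference was 1.28 in inguinal and 2.17 in epididymal cells, averaged 1.73 ± 0.17 (adjusted p = 8.45e-05, limma).

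Adipogenic regulators were called in both directions, 40% of them against 16.9% of all genes. Of 25 measured, 6 rose (Ebf2, Ebf1, Pparg, Zfp423, Ebf3 and Srebf1) and 4 fell (Bmp4, Lmo4, Klf5 and Bmpr1a), and 3 of the former and 1 of the latter, Klf5, were shared at 0.5 in both depots. The median of the list was 0.12. Ebf2 and Bmp4, a ligand of the BMP pathway, had opposite signs in the depots, Bmp4 with 0.02 in inguinal and -3.05 in epididymal cells. Ebf2 shows what an average can hide: its difference was -0.13 in inguinal and 5.12 in epididymal cells, with means of 748 ± 28.3 (SD, n = 3) and 818 ± 14.7 in inguinal GFP+ and GFP- cells and 1174 ± 26.8 and 18.4 ± 5.76 in epididymal ones. Ebf1 behaved in the same way, with 0.04 in inguinal and 4.38 in epididymal cells. Klf5, a Krüppel-like factor of early adipogenesis, read 141, 194 and 155 in inguinal GFP+ against 299, 263 and 327 in inguinal GFP- arrays, and 534, 479 and 416 in epididymal GFP+ against 656, 722 and 687 in epididymal GFP- arrays. It was lower in the GFP+ cells of both depots, by an average of -0.66 ± 0.10 (adjusted p = 0.00131, limma). Of 23 adipocyte lipid genes, 6 rose (Mrap, Fabp4, G0s2, Lpl, Dgat2 and Scd1), 1 fell (Plin2), and 16 did not pass, with 30.4% called and a median of 0.0067. Lpl, the lipase that takes up circulating fat, differed by 1.31 in inguinal and 0.41 in epididymal cells, just short of the size rule in epididymal cells. Adipoq, a gene of mature fat cells, was weakly detected in all groups, with means between 17.1 and 30.4. Of 16 brown and beige fat genes, 3 rose (Ebf2, Cox7a1 and Hoxc9) and 1 fell (Fgf21), with 25% called. Cox7a1, a muscle and brown fat subunit of cytochrome oxidase, was shared at 0.53 and 0.50. Among 19 anti-adipogenic regulators 3 rose (Twist2, Zfp521 and Klf2), 5 fell (Gata3, Foxo1, Irf3, Hes1 and Gata2), and none met the size rule in both depots. With 42.1% called, this list was called about as often as the adipogenic regulators. Zfp521, a relative of Zfp423 that opposes it, differed by 0.07 in inguinal and 1.70 in epididymal cells.

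**Figure D2:**
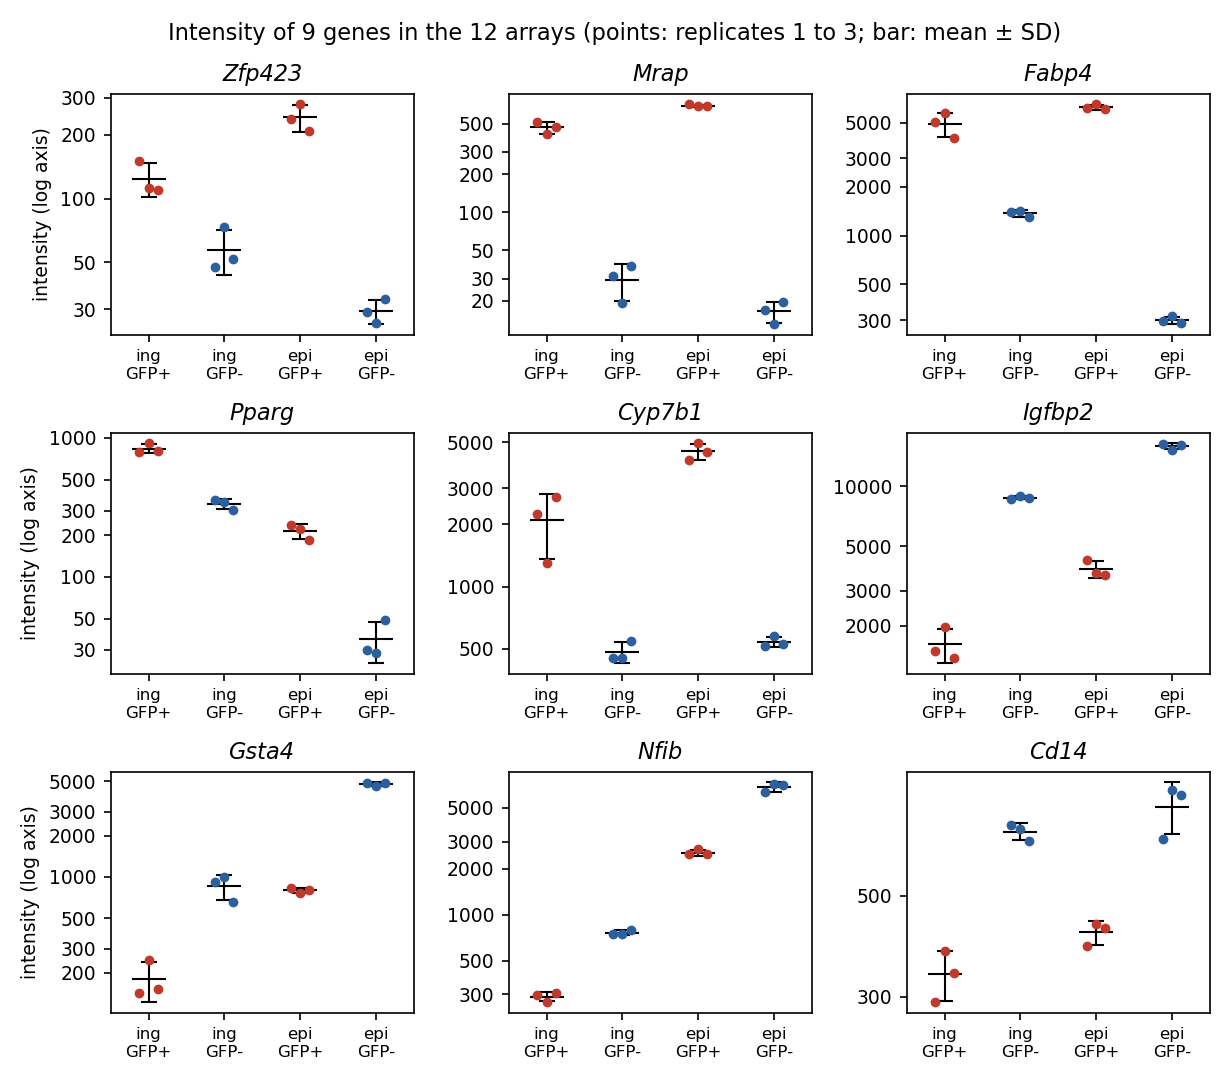
Intensity on log axes of 9 genes in the 12 arrays, with red points for GFP+ and blue points for GFP- replicates in inguinal (ing) and epididymal (epi) cells, and bars for the mean ± SD of 3 arrays. Within each depot the GFP+ points of Zfp423, Mrap, Fabp4, Pparg and Cyp7b1 lie above, and those of Igfbp2, Gsta4, Nfib and Cd14 below, the GFP- points.

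Cyp7b1, Ggt5 and Dpep1 were enzyme genes among the leading 15. Cyp7b1, an oxysterol hydroxylase, read 2252, 1301 and 2729 in inguinal GFP+ against 449, 454 and 548 in inguinal GFP- arrays, and 4108, 4934 and 4501 in epididymal GFP+ against 516, 577 and 527 in epididymal GFP- arrays. The GFP- arrays of the depots overlapped, and inguinal GFP+ replicate 2 was the lowest GFP+ array. The difference was 2.02 in inguinal and 3.02 in epididymal cells, averaged 2.52 ± 0.21 (adjusted p = 2.44e-05, limma). Ggt5 and Dpep1 encode a transferase and a dipeptidase of the cell surface that act in turn on glutathione conjugates. Ggt5 read 788, 499 and 781 in inguinal GFP+ against 109, 149 and 155 in inguinal GFP- arrays, and 228, 227 and 327 in epididymal GFP+ against 65.2, 60.3 and 81.4 in epididymal GFP- arrays. Dpep1 read 1816, 1445 and 1891 in inguinal GFP+ against 491, 484 and 607 in inguinal GFP- arrays, and 2399, 2503 and 2395 in epididymal GFP+ against 163, 173 and 165 in epididymal GFP- arrays. For both genes all 6 GFP+ arrays were above all 6 GFP- arrays. The Ggt5 difference was 2.18 in inguinal and 1.69 in epididymal cells, and that of Dpep1 was 1.67 in inguinal and 3.74 in epididymal cells. Of 27 glutathione and detoxification genes, 8 rose and 5 fell, with 48.1% called and a median of 0.042. Shared among them were Cyp7b1, Ggt5 and Sod3, the secreted superoxide dismutase, as higher genes, and Gsta4 as a lower one. Sod3 differed by only 0.51 in inguinal but by 3.14 in epididymal cells, and inguinal GFP+ replicate 2 lay within the range of the inguinal GFP- arrays for this gene. The other probe set of Sod3, not weakly detected, differed by 0.36 and 0.96 and did not meet the rule.

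Receptors and ligands of the Wnt pathway were found on both sides. Lgr6 read 445, 512 and 483 in inguinal GFP+ against 155, 99.2 and 146 in inguinal GFP- arrays, and 224, 201 and 259 in epididymal GFP+ against 26.1, 29.4 and 38 in epididymal GFP- arrays. It differed by 1.75 in inguinal and 2.37 in epididymal cells, with no overlap of the fractions (average 2.06 ± 0.15, adjusted p = 9.94e-06 in limma). Rspo2, an R-spondin and thus a ligand of Lgr receptors that strengthens Wnt signals, read 1890.2, 1502 and 2063 in inguinal GFP+ against 288, 287 and 315 in inguinal GFP- arrays, and 39.6, 47.6 and 48.6 in epididymal GFP+ against 7.78, 23 and 13.9 in epididymal GFP- arrays. Its epididymal intensities were weak in both fractions, and its difference was 2.54 in inguinal and 1.01 in epididymal cells. Wnt4, a Wnt ligand, read 83, 71.9 and 47.3 in inguinal GFP+ against 161, 149.7 and 133 in inguinal GFP- arrays, and 1841, 2035 and 1873 in epididymal GFP+ against 3782, 3224 and 3633 in epididymal GFP- arrays. Unlike Rspo2, it was brighter in epididymal than in inguinal cells and lower in GFP+ cells, by -1.0 in inguinal and -0.88 in epididymal cells. Of 38 Wnt pathway genes 4 rose (Rspo2, Fzd2, Frzb and Fzd8) and 7 fell (Rspo1, Wnt4, Wnt2, Wnt5b, Wnt11, Nkd1 and Ccn4), with 28.9% called and a median of 0.089. Among the 35 measured genes of BMP and TGF-beta signalling 1 rose (Inhba), 9 fell (Bmp4, Id2, Tgfb3, Smad6, Id4, Smad7, Acvr1, Tgfb2 and Bmpr1a), and none was shared at 0.5. Of this list 28.6% were called, against 16.9% of all genes. Tgfb3, a TGF-beta ligand, came near with -0.88 in inguinal and -0.43 in epididymal cells.

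Other signalling genes among the leading 15 were Pgr, the progesterone receptor, Greb1 and Arhgap6. Pgr read 129, 95.1 and 114 in inguinal GFP+ against 17, 31.7 and 26.4 in inguinal GFP- arrays, and 58, 64.3 and 107 in epididymal GFP+ against 7.3, 7.96 and 8.35 in epididymal GFP- arrays. GFP- arrays were all near the floor, and the difference was 1.66 in inguinal and 1.92 in epididymal cells for a gene that was weakly detected on average. Greb1 read 701, 635 and 677 in inguinal GFP+ against 186, 180.1 and 165 in inguinal GFP- arrays, and 386, 383 and 371 in epididymal GFP+ against 129, 180.3 and 150.2 in epididymal GFP- arrays. It was one of the 6 higher genes with a called depot difference that was larger in inguinal cells, 1.83 against 1.24. Arhgap6 read 501, 562 and 525 in inguinal GFP+ against 219, 187 and 182 in inguinal GFP- arrays, and 382, 447 and 447 in epididymal GFP+ against 143, 112 and 113 in epididymal GFP- arrays. Its difference was alike in the depots, 1.37 in inguinal and 1.68 in epididymal cells (average 1.52 ± 0.09, adjusted p = 2.69e-06 in limma). Another probe set of Arhgap6 differed by 0.38 and 0.76, short of the rule, and a further one by 1.715 and 1.598.

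Of the 26 lists, that of matrix genes held the most shared higher genes. Of 47 collagen and matrix genes, 19 rose and 8 fell (57.4% called against 16.9% of all genes, median 0.10), and 3 of them (Col5a1, Col6a3 and Lama2) had opposite signs in the depots with inguinal differences near 0. In the higher direction, 7 of the 47 were shared at 0.5 in both depots, a rule met in this direction by 0.799% of all genes: Spon1, Aspn, Mfap4, Dpt, Thbs2, Fbln1 and Col12a1. Spon1, which encodes the adhesion protein F-spondin, read 338, 126 and 521 in inguinal GFP+ against 31.3, 74 and 70.0 in inguinal GFP- arrays, and 346, 502 and 333 in epididymal GFP+ against 25.1, 33.4 and 28.9 in epididymal GFP- arrays. Dpt, dermatopontin, which binds collagen fibrils, read 921, 544 and 1067 in inguinal GFP+ against 95, 150.2 and 173 in inguinal GFP- arrays, and 65, 102 and 97.9 in epididymal GFP+ against 24.1, 32.2 and 32.1 in epididymal GFP- arrays. Fbn2, a fibrillin of elastic microfibrils, read 700.1, 375 and 890.2 in inguinal GFP+ against 230.1, 219 and 272 in inguinal GFP- arrays, and 194, 212 and 247 in epididymal GFP+ against 77.1, 68.6 and 95.1 in epididymal GFP- arrays. In each of these 3 genes inguinal GFP+ replicate 2 was the lowest inguinal GFP+ array, though above the inguinal GFP- arrays. Differences were 2.07 in inguinal and 3.16 in epididymal cells for Spon1, 2.45 and 1.18 for Dpt, and 1.31 and 1.28 for Fbn2. The other probe set of Spon1, not weakly detected, differed by only 0.137 in inguinal and 0.4975 in epididymal cells and did not meet the rule. The small leucine-rich proteoglycan genes Aspn and Lum differed by 0.78 and 0.92 in inguinal and by 3.69 and 1.24 in epididymal cells. For Lum, inguinal GFP+ replicate 2 (130) lay within the range of the inguinal GFP- arrays (72.8, 131 and 161). Mfap4, a partner of elastic fibres, differed by 1.14 in inguinal and 3.07 in epididymal cells. Thbs2, a thrombospondin that limits matrix assembly and vessels, read 23841, 21106 and 23119 in inguinal GFP+ against 15388, 15606 and 16062 in inguinal GFP- arrays, and 15779, 14116 and 15600.3 in epididymal GFP+ against 2189.8, 2438 and 2204 in epididymal GFP- arrays. It was among the brightest of the shared genes, and its epididymal GFP- arrays stood far below the other 3 groups. Its difference was 0.53 in inguinal and 2.73 in epididymal cells. The other probe set of Thbs2, not weakly detected, differed by 0.39 and 2.595 and did not meet the rule. Fbln1 and Col12a1 differed by 0.79 and 0.69 in inguinal and by 1.35 and 0.91 in epididymal cells. The only shared matrix gene of the list that was lower was Col11a1, a fibrillar collagen of cartilage, with -0.95 in inguinal and -1.13 in epididymal cells. The 8 that fell in the averaged fit were Eln, Col11a1, Col18a1, Fbln5, Col4a5, Col4a1, Col4a2 and Fn1, among them 3 chains of basement membrane collagen IV. Of 23 matrix proteases and inhibitors, 11 rose and 3 fell (Timp3, Mmp14 and Timp2), with 60.9% called and a median of 0.29, and only Mmp3, stromelysin, was shared (0.54 and 1.17).

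**Figure D3:**
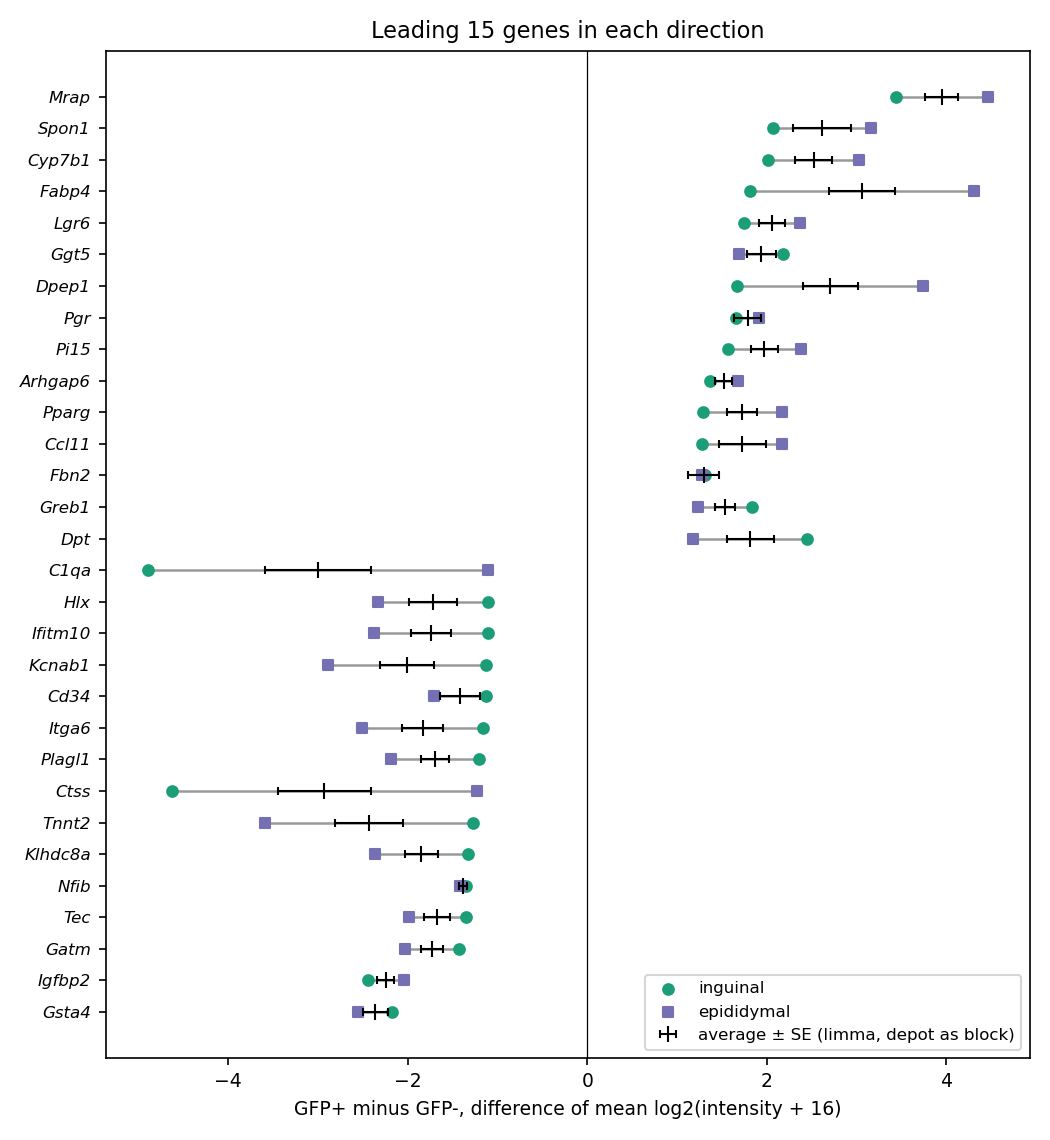
The 15 genes in each direction with the largest smaller difference of the depots, as GFP+ minus GFP- on the log2(intensity + 16) scale, with circles for inguinal and squares for epididymal cells and a cross with bars for the average ± SE of the limma fit with depot as block. Mrap is at the top, Gsta4 and Igfbp2 are at the bottom, and C1qa and Ctss span the widest range between depots.

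One array stood out within its group for the shared genes. Inguinal GFP+ replicate 2 was the inguinal GFP+ array nearest to the mean of the GFP- arrays for 65 of the 99 higher genes (65.7%) and for 55 of the 113 lower genes (48.7%), against 41.2% of all genes. For replicate 1 the share of the higher genes was 9.09%, and for replicate 3 it was 25.3%. Without this array 250 genes met the rule, 120 of them higher, and 200 of the 212 were among them.

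Most chemokine and inflammatory genes were not called, though the share called was above the 16.9% of all genes. Of 29 chemokine and inflammatory genes 8 rose (Ccl9, Ptges, Cxcl14, Ccl11, Hp, Ccl8, Ccl7 and Csf1) and 2 fell (Cxcl1 and Ptgs2), with 34.5% called and a median of -0.031, and Ptges, Ccl11 and Ccl8 were shared. Ccl11, eotaxin, which attracts eosinophils, read 169, 97 and 199 in inguinal GFP+ against 56.8, 26.3 and 85.4 in inguinal GFP- arrays, and 180.4, 195 and 126 in epididymal GFP+ against 18.3, 23 and 32.2 in epididymal GFP- arrays. The fractions did not overlap in either depot, and the difference was 1.28 in inguinal and 2.17 in epididymal cells. Ptges, the inducible synthase of prostaglandin E, read 1600.3, 1584 and 1651 in inguinal GFP+ against 859, 846 and 829 in inguinal GFP- arrays, and 1129.9, 1159 and 1211 in epididymal GFP+ against 80.2, 114 and 103 in epididymal GFP- arrays. The inguinal difference of Ptges was 0.92 and the epididymal one 3.37, while Ptgs2, the cyclooxygenase before it in the pathway, fell. Ccl8, a monocyte chemokine, went the other way in size, 1.77 in inguinal and 0.71 in epididymal cells. Of 10 complement genes outside C1q, none was called in the averaged limma fit (1 at an unadjusted p under 0.05, and 3 with 4 group means), with a median of -0.065. Of 23 interferon response genes 6 rose (Psmb8, Ifit1, Usp18, Gbp3, Ifit3 and Ifit2) and none fell in limma (none at an unadjusted p under 0.05 either, and 1 with 4 group means), with 26.1% called and a median of 0.19, and Ifit1 and Usp18 were shared. For Usp18, which switches interferon signals off, the inguinal GFP+ arrays read 214, 331 and 130.1 and overlapped the GFP- arrays at 153, 113 and 133.

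Of the retinoid genes, Rarres2 and Rbp4 were shared. Rarres2, which encodes the adipokine chemerin, read 2016, 1605 and 2037 in inguinal GFP+ against 703, 692 and 738 in inguinal GFP- arrays, and 1535, 1649.7 and 1733 in epididymal GFP+ against 689.7, 761 and 762 in epididymal GFP- arrays. All GFP+ arrays were above all GFP- arrays, and the difference was close in both depots, 1.38 and 1.14 (average 1.26 ± 0.07, adjusted p = 1.86e-06 in limma). Rbp4, the carrier of retinol in blood, differed by 0.60 in inguinal and 2.10 in epididymal cells. The retinoid list had 3 that rose (Rarb, Rbp4 and Rarres2) and 1 that fell (Cyp26a1) of 19, with 21.1% called and a median of 0.073.

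Growth factor genes were found on both sides. The higher shared genes held Hgf, hepatocyte growth factor, with 0.64 in inguinal and 3.06 in epididymal cells, and Pdgfd, a ligand of the platelet-derived growth factor receptor, with 0.53 in inguinal and 1.95 in epididymal cells. Hbegf and Ereg, both ligands of the epidermal growth factor (EGF) receptor, were lower. Hbegf read 2179, 2779.6 and 1904 in inguinal GFP+ against 3717, 3539 and 3515 in inguinal GFP- arrays, and 2379.9, 2234 and 2501 in epididymal GFP+ against 5828, 5482 and 5848 in epididymal GFP- arrays. Ereg read 869.6, 1075 and 829 in inguinal GFP+ against 1449, 1415 and 1361 in inguinal GFP- arrays, and 1484, 1494 and 1389 in epididymal GFP+ against 2998, 3291 and 3165 in epididymal GFP- arrays. In both genes every array of GFP+ cells lay below the GFP- arrays of its own depot, by -0.66 in inguinal and -1.27 in epididymal cells for Hbegf and by -0.61 and -1.11 for Ereg. Outside the lists, and singled out after the values were seen, Errfi1, a feedback inhibitor of the EGF receptor, was higher. Errfi1 read 10857, 9779.6 and 10454 in inguinal GFP+ against 5403, 5409 and 5665 in inguinal GFP- arrays, and 14868, 14879 and 14969 in epididymal GFP+ against 3579, 3617 and 3731 in epididymal GFP- arrays. It differed by 0.91 in inguinal and 2.03 in epididymal cells. Dusp6 and Dusp8, phosphatases of mitogen-activated protein kinases and likewise named after their values were seen, were lower, by -0.64 and -0.64 in inguinal and -1.51 and -0.54 in epididymal cells. Of 31 growth factor ligands and receptors 4 rose (Fgf7, Hgf, Pdgfd and Fgfr1) and 7 fell (Fgfr2, Hbegf, Ereg, Kitl, Fgfr3, Fgf9 and Pdgfc), with 35.5% called and a median of -0.023.

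Among the lower genes Igfbp2, a binding protein that holds insulin-like growth factors, led together with Gsta4. Igfbp2 read 1502, 1975 and 1381 in inguinal GFP+ against 8655, 8969 and 8709.5 in inguinal GFP- arrays, and 4284, 3663 and 3579 in epididymal GFP+ against 16209.9, 15216 and 16084 in epididymal GFP- arrays. Every GFP+ array was below every GFP- array, and within each fraction the epididymal arrays were above the inguinal ones. The difference was -2.44 in inguinal and -2.04 in epididymal cells, averaged -2.24 ± 0.10 (adjusted p = 1.75e-07, limma). Igfbp4, another such protein, read 2897, 2789 and 3325 in inguinal GFP+ against 6077, 6331 and 6746 in inguinal GFP- arrays, and 6647, 8524 and 6982 in epididymal GFP+ against 11753, 12982 and 12268 in epididymal GFP- arrays. It was lower by -1.09 in inguinal and -0.75 in epididymal cells, and the epididymal GFP+ arrays were above some inguinal GFP- arrays. Of 18 genes of this axis 3 fell (Igfbp2, Igfbp4 and Igfbp6) and 3 rose (Pappa, Igfbp5 and Igfbp7), with 33.3% called and a median of 0.029. Pappa encodes the protease that cleaves Igfbp4, and it differed by 0.44 in inguinal and 1.06 in epididymal cells.

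Gsta4, a glutathione transferase for aldehydes from oxidised lipids, read 142, 248 and 153 in inguinal GFP+ against 923, 998 and 660.1 in inguinal GFP- arrays, and 826, 766 and 809 in epididymal GFP+ against 4807, 4621 and 4859 in epididymal GFP- arrays. Inguinal GFP- and epididymal GFP+ arrays overlapped, so the 6 GFP+ and 6 GFP- arrays were apart only within depots. The difference was nevertheless close in both depots, -2.17 and -2.55 (average -2.36 ± 0.14, adjusted p = 2.25e-06 in limma). Nfib, a transcription factor of the nuclear factor I family, read 298, 268 and 305 in inguinal GFP+ against 744, 749 and 793 in inguinal GFP- arrays, and 2477, 2685 and 2482 in epididymal GFP+ against 6309.5, 7172 and 7094 in epididymal GFP- arrays. The epididymal arrays were brighter than the inguinal ones in either fraction, while the difference was nearly the same, -1.35 and -1.42. Its average of -1.38 ± 0.05 had the smallest adjusted p of all genes (2.73e-08, limma). Gatm, which makes the precursor of creatine, read 61.9, 74.3 and 57.3 in inguinal GFP+ against 203, 213 and 183 in inguinal GFP- arrays, and 245, 227 and 202 in epididymal GFP+ against 1058, 897 and 941 in epididymal GFP- arrays. Tec, a tyrosine kinase, read 171, 168 and 99.8 in inguinal GFP+ against 435, 373 and 363 in inguinal GFP- arrays, and 219, 206 and 207 in epididymal GFP+ against 946, 854 and 854 in epididymal GFP- arrays. Both were lower in every GFP+ array than in the GFP- arrays of the same depot, Gatm by -1.42 in inguinal and -2.03 in epididymal cells and Tec by -1.35 and -1.99. Plagl1, an imprinted zinc-finger gene, differed by -1.20 in inguinal and -2.18 in epididymal cells. Itga6, an integrin chain that binds laminin, read 175, 274 and 147 in inguinal GFP+ against 466, 436 and 448 in inguinal GFP- arrays, and 231, 260.1 and 259 in epididymal GFP+ against 1645, 1369 and 1474 in epididymal GFP- arrays. It was lower by -1.16 in inguinal and -2.50 in epididymal cells. Tnnt2, the troponin T of heart muscle, and Kcnab1, a potassium channel subunit, differed by -1.27 and -1.12 in inguinal and by -3.59 and -2.89 in epididymal cells. Klhdc8a and Ifitm10 were lower by -1.85 and -1.74 on average. Hlx, a homeobox gene, differed by -1.10 in inguinal and -2.33 in epididymal cells, from inguinal GFP+ intensities of only 2.17, 24.9 and 17.6. In 8 of the 15 leading lower and in 9 of the 15 leading higher genes at least 1 group mean lay under 77.7, so those differences are understated.

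Cd34, a surface marker of fat progenitor cells, was weakly detected. It read 7.82, 41.8 and 10.0 in inguinal GFP+ against 49.5, 48.3 and 72.7 in inguinal GFP- arrays, and 35.4, 50.7 and 40.4 in epididymal GFP+ against 144, 172 and 206 in epididymal GFP- arrays. The difference was -1.13 in inguinal and -1.70 in epididymal cells, in both cases below the GFP- arrays. Of 18 fibroblast progenitor markers, 3 rose (Lum, F3 and Itgb1), 2 fell (Cd34 and Cd24a), and the median was 0.017. The share called was 27.8%, against 16.9% of all genes. F3, the coagulation factor also known as CD142, read 7276, 7026 and 7552 in inguinal GFP+ against 4871, 4829 and 5267 in inguinal GFP- arrays, and 7545, 8310 and 7421 in epididymal GFP+ against 5212, 5165 and 5258 in epididymal GFP- arrays. Bright and with little spread, it differed by 0.55 in inguinal and 0.57 in epididymal cells, with an average of 0.56 ± 0.03 (adjusted p = 2.69e-06, limma). Hoxd8 and Hoxd9, neighbouring homeobox genes that mark position along the body, were lower by -2.39 and -1.27 in inguinal and by -0.59 and -0.96 in epididymal cells. Of 34 position and patterning genes 4 rose (Prrx1, Tbx3, Hoxc9 and Hoxa5) and 4 fell (Hoxd8, Hoxd9, Osr1 and Hoxa10), with 23.5% called and a median of 0.11. Hoxd9 with Hoxd8, Dlx2 with Itga6, C1qc with C1qa and Lyz2 with Lyz1 were the 4 pairs of shared genes that neighbour each other in the RefSeq annotation (GRCm38.p6), and the members of each pair were all lower.

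The chosen list of macrophage and leukocyte markers accounted for 10 of the 113 shared lower genes. Of 26 measured, 13 fell (50% against 8.88% of all genes) and none rose in limma (none at an unadjusted p under 0.05 either, and 1 with 4 group means), and the shared ones were C1qa, Ctss, Lyz1, Mpeg1, Lyz2, C1qc, Fcer1g, Tyrobp, Cd68 and Cd14. Of the list, 12 genes were weakly detected. The medians were -0.95 averaged, -1.65 in inguinal and -0.27 in epididymal cells. Their summed intensity was 3117 to 3518 in inguinal GFP+, 19887 to 23736 in inguinal GFP-, 4310 to 4783 in epididymal GFP+ and 5575 to 6157 in epididymal GFP- arrays. Inguinal GFP- arrays thus stood above all others. Ctss, cathepsin S of antigen-presenting cells, read 42, 46.1 and 37.6 in inguinal GFP+ against 1282, 1544 and 1421 in inguinal GFP- arrays, and 67.3, 68.2 and 92.8 in epididymal GFP+ against 262, 232 and 127 in epididymal GFP- arrays. C1qa, a chain of complement C1q, read 23.1, 5.45 and 8.52 in inguinal GFP+ against 681, 970.3 and 773 in inguinal GFP- arrays, and 6.35, 22.6 and 36.8 in epididymal GFP+ against 49, 70.2 and 64.4 in epididymal GFP- arrays. Both were brightest in inguinal GFP- arrays by far, and they differed by -4.63 in inguinal and -1.23 in epididymal cells for Ctss and by -4.90 and -1.10 for C1qa. Cd14, a receptor for bacterial lipopolysaccharide, was unlike them. It read 293, 378 and 339 in inguinal GFP+ against 713, 701 and 657 in inguinal GFP- arrays, and 387, 434 and 426 in epididymal GFP+ against 667, 854 and 831 in epididymal GFP- arrays. The Cd14 difference was close in the depots, -1.01 and -0.88 (average -0.95 ± 0.08, adjusted p = 2.66e-05 in limma). Ptprc, which encodes the pan-leukocyte antigen CD45, had means of 9.31 ± 4.41, 251 ± 10.3, 16.8 ± 11.8 and 26.3 ± 20.4 (SD, n = 3) in inguinal cells with and without GFP and in epididymal cells with and without GFP, in that order. It was above the floor in inguinal GFP- cells alone, and no marker of the list was at 0 in all arrays. Csf1r, the receptor of a macrophage growth factor, had opposite signs in the depots, with -0.76 in inguinal and 1.05 in epididymal cells. Lyz1 and Lyz2 are near-identical copies whose probes may share RNA. Outside the list, and named after the values were seen, Cd53, a leukocyte antigen gene, was a shared higher gene. Its means were 4110 and 2160 in inguinal GFP+ and GFP- cells and 905 and 208 in epididymal ones. Fcgr3 and Ccl6, also outside the list, were shared lower genes, by -2.44 and -3.06 in inguinal and -0.95 and -0.51 in epididymal cells. Without the macrophage, leukocyte and mesothelial lists, 1077 of the 1100 lower genes and 100 of the 113 shared lower genes were left. In bulk RNA fewer cells of a type and less RNA per cell cannot be told apart, and the part of such cells in the other lower genes was not tested.

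Mesothelial markers, of the cells that line the abdominal cavity, were also lower, and mainly in the other depot. Of 16 measured, 10 fell (62.5% against 8.88% of all genes; Gata6 had opposite signs, with 0.03 in inguinal and -1.82 in epididymal cells) and none rose in limma (none at an unadjusted p under 0.05 or with 4 group means either), with a median of -1.40 averaged, -0.075 in inguinal and -2.61 in epididymal cells. Their summed intensity was 3385 to 3669 in inguinal GFP+, 3261 to 3493 in inguinal GFP-, 12374 to 12878 in epididymal GFP+ and 56969 to 59910 in epididymal GFP- arrays. Upk3b, a defining marker, had means of 10.5 ± 3.06, 12.5 ± 6.84, 599.6 ± 22.8 and 9459 ± 387 (SD, n = 3) in the same order of groups, and Msln, mesothelin, 37.2 ± 7.13, 47.3 ± 10.3, 181 ± 17.5 and 2331 ± 79.6. Both were weak in inguinal cells. Shared at 0.5 in both depots were Nkain4 (-0.83 and -2.52), Krt18 (-0.55 and -2.70) and Efemp1, which encodes a fibulin-like matrix protein. Krt18 was weak in inguinal cells, where its GFP+ arrays (68, 29.3 and 15.7) overlapped the GFP- arrays (70.9, 62.6 and 39.5). Efemp1 read 409, 379.8 and 397 in inguinal GFP+ against 626, 679 and 721 in inguinal GFP- arrays, and 2369, 2755 and 2567 in epididymal GFP+ against 5220.2, 4439 and 5086 in epididymal GFP- arrays, a difference of -0.75 in inguinal and -0.93 in epididymal cells. Of 19 endothelial markers, 14 of them weakly detected, 2 rose (Sox18 and Egfl7) and 1 fell (Esam), and Sox18 was shared (0.52 and 0.97). Of 20 mural cell markers, 1 rose (Kcnj8) and 1 fell (Mcam). Of 15 epithelial markers 14 were weakly detected and 1 rose (Ovol1), and among the 13 measured markers of skeletal muscle or Schwann cells none was called in limma (4 at an unadjusted p under 0.05, and 2 with 4 group means). The medians of these 4 lists were 0.11, -0.015, -0.20 and -0.13. Their shares called were 15.8%, 10%, 6.67% and 0%, each under the 16.9% of all genes in this fit. With 4 group means, 7 endothelial, 14 mural and 5 epithelial markers were called for the average, against 35.3% of all genes. Endothelial, epithelial and muscle or Schwann sums were 6314 to 6681, 1057 to 1103 and 4868 to 5238 in epididymal GFP- arrays. In the other groups they reached at most 3396, 632 and 1853. Mural sums were highest in epididymal GFP+ arrays.

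**Figure D4:**
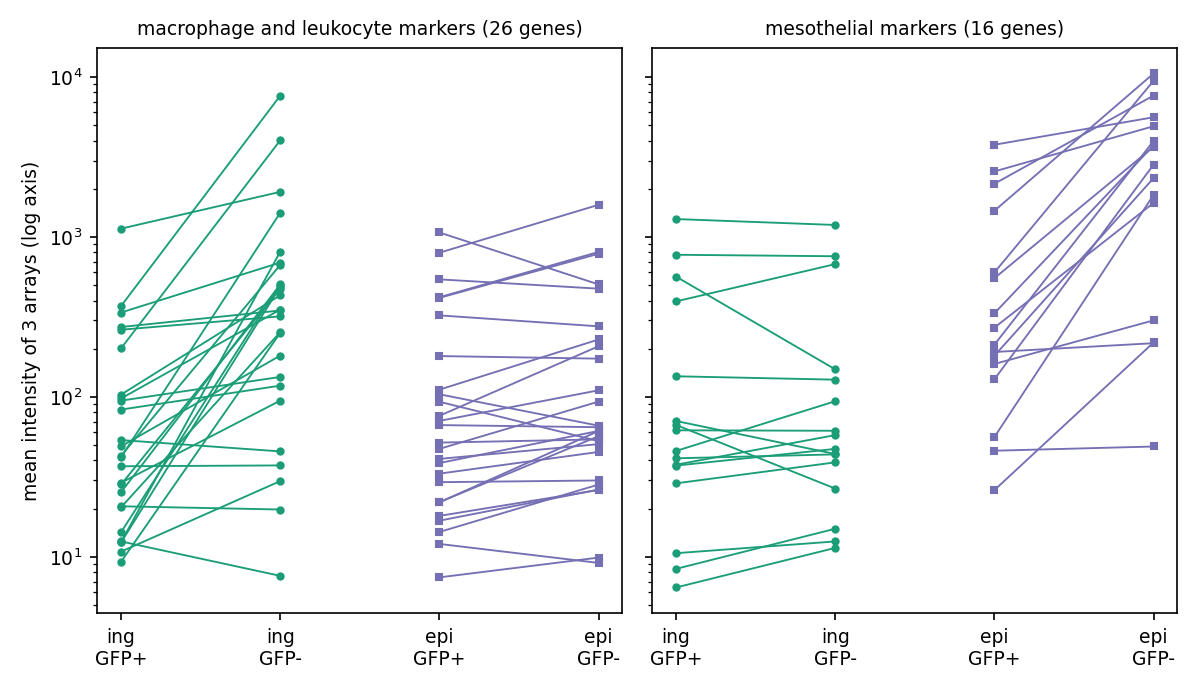
Mean intensity of 3 arrays, on a log axis, of 26 macrophage and leukocyte markers (left) and 16 mesothelial markers (right) in GFP+ and GFP- cells, with a line for each gene in inguinal (green) and epididymal (purple) cells. Lines rise from GFP+ to GFP- mainly in inguinal cells on the left and in epididymal cells on the right.

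In the cell cycle list 20.6% of genes were called, near the 16.9% over all genes. In it 1 of 34 genes rose (Aurka) and 6 fell (Cdkn2a, Ccnd1, Mcm7, Mcm2, Ccnd2 and Cdkn1a), with a median of 0.0016, and no gene met the size rule in both depots. Among 11 control genes 2 rose, Tfrc and Pgk1, with 18.2% called, and the median was -0.011. Tfrc, the transferrin receptor, differed by 0.14 in inguinal and 1.43 in epididymal cells. Of 4 sex check genes 1, the Y-linked Uty, fell by 0.18 on the log2 scale, a call that was lost under 13 of the alternative settings. The calls of Tfrc and Pgk1 were lost under 8 and 7 of them. Of the 212 shared genes, 54 were in one of the 26 lists and 158 in none.

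**Figure D5:**
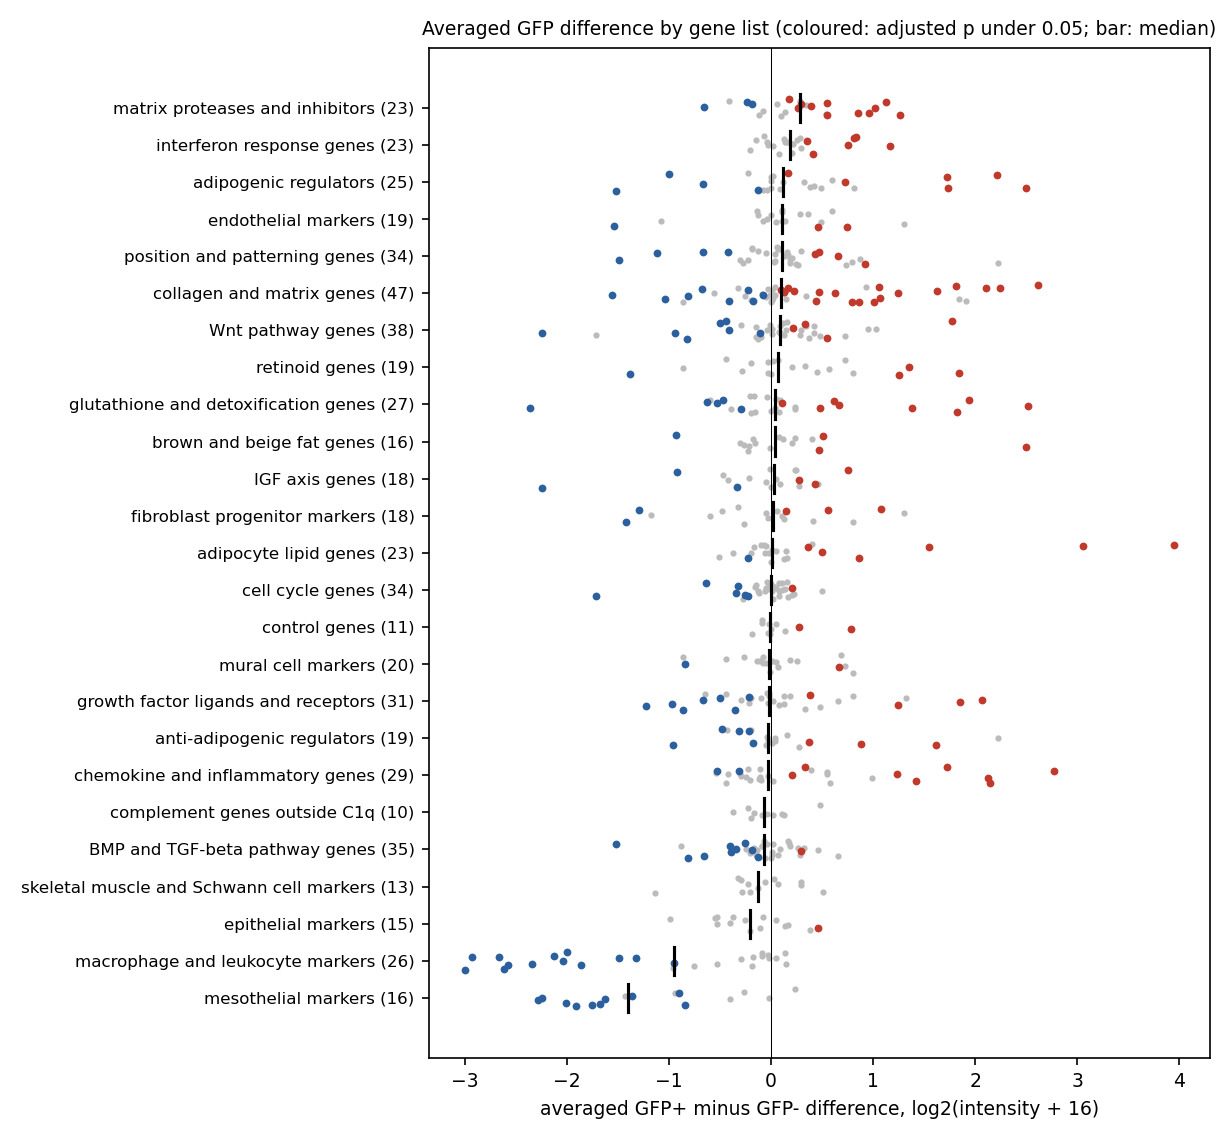
Averaged GFP+ minus GFP- difference on the log2(intensity + 16) scale for each measured gene of 25 lists, with red and blue points for genes called higher and lower at an adjusted p of 0.05 in limma, grey points for the others, a bar for the median and the number of genes in parentheses. The medians of the macrophage and leukocyte list (-0.95) and the mesothelial list (-1.40) lie lowest.

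Other probe sets of the shared genes were compared with the one used. They read the same RNA on the same arrays for genes already chosen, so they are no separate test of the shared differences. Of the 212, 78 had more than 1 probe set, with 119 besides the one used. Of these, 68 were not weakly detected, 66 of the 68 had the same sign in both depots, and 45 met the 0.5 rule as well. The exceptions in sign were Inhbb, a chain of activin B, and Shroom3, a regulator of cell shape, each with 1 probe set of opposite sign in a depot. Among those of one sign that fell short of 0.5 were probe sets of Spon1, Thbs2, Sod3 and Arhgap6. Of the 51 weakly detected probe sets 30 had the same sign in both depots. Just inside the threshold of 0.5 were Krt72, Rab29 and Cox7a1 among the higher and Syne2, Dtna and Slc4a10 among the lower genes. Just outside were Rai2, Grb14 and Abhd11os on the higher and Clstn2, Fgfr3 and Dusp22 on the lower side. Rab29 differed by 0.52 in inguinal and 0.50 in epididymal cells, and Grb14, an adaptor that restrains the insulin receptor, by 0.86 in inguinal and 0.50 in epididymal cells.

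Genes with opposite differences cancel in the average. A size of at least 0.5 with opposite signs was found for 158 genes, 61 higher in inguinal and lower in epididymal GFP+ cells and 97 the reverse, and none of the 158 was called in the averaged limma fit (7 at an unadjusted p under 0.05, and 69 with 4 group means), where the adjusted p-values of the 6 named here lay between 0.336 and 0.888. Sfrp2, a secreted Wnt modulator, read 211, 90.8 and 349 in inguinal GFP+ against 16.9, 22.2 and 17.6 in inguinal GFP- arrays, and 15.8, 47.1 and 37.7 in epididymal GFP+ against 2442, 3600.2 and 3135 in epididymal GFP- arrays. It was high in inguinal GFP+ and far higher in epididymal GFP- cells, with differences of 2.57 in inguinal and -6.00 in epididymal cells. Krt7, a keratin, and Aldh1a1, a retinaldehyde dehydrogenase, differed by 1.82 and 1.66 in inguinal and by -4.67 and -2.53 in epididymal cells. In the other orientation Srgn, the proteoglycan of secretory granules, differed by -2.21 in inguinal and 1.89 in epididymal cells, Slamf9 by -1.47 and 2.36, and Pcolce2, an enhancer of procollagen processing, by -2.02 and 1.38.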

How the data were processed

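Labelled cRNA from 12 samples was hybridised to Affymetrix arrays. The authors deposited a table of linear intensity for 22626 probe sets. The signal algorithm, background correction and scaling are not given in the sources used here. The platform annotation gave 1 gene symbol for 20380 probe sets, which were used, several for 691 and none for 1555. Symbols were updated through the RefSeq gene table of GRCm38.p6, and 24 without a current match were kept.

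Intensities entered as log2 after adding 16, and each gene was read from its brightest probe set over all arrays. GFP was fitted with depot as a covariate by limma 3.58.1 under R 4.3.3, with moderated variances that follow a trend on mean expression, and a mean for each of 4 groups gave each depot's difference and their difference. Calls were made at a Benjamini-Hochberg adjusted p of 0.05 over 12393 genes. The scripts were tested on simulated data. The number of arrays limits the precision.

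The comparison, its genes and the 26 lists (628 genes, 576 measured) were chosen with earlier results of these data known. The text names part of 100 genes: Zfp423, Mrap, Fabp4, Pparg and Igfbp2; the 15 per direction with the largest smaller difference of the depots; shared members of each list, or up to 2 called ones where it had none; 3 just inside and 3 just outside the limit per direction; 3 per orientation with opposite signs; and the 3 smallest adjusted p-values. Other names of called list members were added for the counts. Samples were grouped by their labels. Alternatives are given in the closing section; a count without the macrophage, leukocyte and mesothelial lists was added after the data were seen.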

Additional observations from a re-analysis of the deposited data

Results flagged for a closer look

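The results given here are the 66 of the 100 genes chosen by the naming rule whose GFP difference itself differed between the depots in the limma interaction test (adjusted p under 0.05 over all genes). Each value in parentheses is the inguinal minus the epididymal difference on the log2(intensity + 16) scale. Such a difference was called for 112 of the 212 shared genes. No group had the 4 or more samples needed for a test of single arrays.

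Among the 22 of these genes that were higher in the GFP+ cells of both depots, 18 had the larger difference in epididymal cells: Aspn (-2.91), Sod3 (-2.63), Fabp4 (-2.49), Ptges (-2.45), Hgf (-2.42), Thbs2 (-2.20), Dpep1 (-2.07), Mfap4 (-1.93), Zfp423 (-1.56), Rbp4 (-1.50), Pdgfd (-1.42), Mrap (-1.02), Cyp7b1 (-1.01), Pparg (-0.89), Pi15 (-0.80), Mmp3 (-0.64), Lgr6 (-0.62) and Fbln1 (-0.57). The difference was larger in inguinal cells for the other 4, Rspo2 (1.53), Dpt (1.27), Ccl8 (1.06) and Greb1 (0.59).

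Among the 26 that were lower in both depots, 12 differed more in inguinal cells: C1qa (-3.79), C1qc (-3.58), Ctss (-3.39), Lyz1 (-3.32), Lyz2 (-3.29), Mpeg1 (-3.21), Tyrobp (-3.05), Fcer1g (-2.69), Hoxd8 (-1.80), Cd68 (-0.75), Igfbp2 (-0.40) and Igfbp4 (-0.34). The larger difference was epididymal for the other 14, Tnnt2 (2.31), Krt18 (2.15), Kcnab1 (1.76), Nkain4 (1.69), Itga6 (1.34), Syne2 (1.28), Ifitm10 (1.26), Hlx (1.23), Klhdc8a (1.04), Plagl1 (0.98), Tec (0.64), Gatm (0.61), Hbegf (0.60) and Ereg (0.50).

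The remaining 18 did not meet the rule for shared genes. Those of opposite sign were Sfrp2 (8.57), Krt7 (6.48), Aldh1a1 (4.18), Srgn (-4.10), Slamf9 (-3.83) and Pcolce2 (-3.40). The others were Rai2 (-1.56), Tfrc (-1.29), Mcam (-1.04), Abhd11os (-1.01), Pgk1 (-0.48), Mcm7 (0.45), Tgfb3 (-0.45), Klf2 (-0.38), Foxo1 (0.36), Grb14 (0.36), Acvr1 (0.27) and Ccnd2 (0.25).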

How the results depend on the processing

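The averaged counts of 998 higher and 1100 lower genes were 2134 and 2235 with 4 group means, by construction since the depot difference is then no error, and 304 and 371 at an adjusted p of 0.01. With every probe set tested as its own feature, 1718 were lower. Leaving out 1 array gave 536 to 1179 higher and 622 to 1144 lower genes. In these fits the depot that lost an array counted for less in the average. The 99 and 113 shared genes were 227 and 272 with a pseudocount of 1 and 60 and 72 with 64, 20 and 19 at a minimum difference of 1 and 405 and 469 at 0.25. With every probe set 173 were lower. Leaving out 1 array gave 96 to 120 and 114 to 134. The inguinal count of 1556 was 963 at an adjusted p of 0.01 and 1158 to 1845 without 1 array. The epididymal count of 5187 was 8044 with every probe set and 4733 to 5313 without 1 array, and the depot difference count of 4313 was 3897 to 4317. Other causes were not tested. Median centring gave 1163 higher and 909 lower genes and quantile normalization 1152 and 993, so which direction had more calls turned with the scaling. Of the 212 shared genes, 199 and 201 met the rule under these scalings.

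Srgn, which was not called, had an averaged difference of -0.16 and changed sign on leaving out any inguinal array (0.029, 0.060, 0.11, 0.038, 0.11 and 0.053), with a range of -0.42 to 0.11 over single arrays left out. Its differences were opposite, -2.21 in inguinal and 1.89 in epididymal cells. Without an inguinal array the fit gives inguinal cells less weight, which moves the average toward the epididymal difference. Of 100 named genes, 44 changed call or sign under at least 1 setting and 43 changed call, 36 of them with the replicate block. These 36 include 8 of the 10 shared macrophage and leukocyte markers (C1qa, Ctss, Lyz1, Lyz2, Mpeg1, C1qc, Fcer1g and Tyrobp).

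Replicate numbers are shared by the groups, but nothing in the labels says that they pair samples, and same-numbered arrays did not deviate together (r between -0.029 and 0.044). With the replicate block the averaged fit called 157 higher and 205 lower genes, and the rule for shared genes, which uses means, was untouched.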
